A study of Mus musculus with 18 samples.

Results

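The genes of the cytosolic ribosomal proteins are described here across the left ventricles of mice given isoproterenol alone or with minocycline. Members were chosen by symbol (Rpl or Rps followed by a number, Rplp0 to Rplp2, and Rpsa). Pseudogene names, the S6 kinases, Rps19bp1 and Rpl7l1 were left out, and at least 10 counts in 6 or more libraries were required. Of the 48709 genes in the table, 90 had such a name and 83 reached the minimum: 50 of the large and 33 of the small subunit. The 7 that did not were Rps4l, Rps12l1, Rps3a2 and Rps3a3 with 0 counts over the 18 libraries, Rpl10l with 7, Rpl6l with 13 and Rpl39l with 29.

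Cytosolic ribosomes translate the messages of nuclear genes. The small subunit reads the message, and the large subunit joins the amino acids and passes the growing chain through an exit tunnel. Many ribosomal protein messages begin with a run of pyrimidines, the terminal oligopyrimidine tract, through which mTOR and LARP1 are known to control their translation and stability. Growth of the heart muscle under adrenergic drive is known to draw on new ribosomes.

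The animals were male wild-type C57BL/6J mice, 12 weeks old, and polyadenylated RNA was sequenced in 18 libraries. Control mice received saline in place of both drugs. The isoproterenol group was infused by osmotic pump with this β-adrenergic agonist (30 mg/kg/day for 21 days) and injected with saline. The last group had the same infusion and daily intraperitoneal minocycline, a tetracycline antibiotic, at 50 mg/kg. Each group had 6 libraries, and a group given minocycline alone is not analysed here. The labels speak of pooled RNA, so it is uncertain whether a library stands for 1 animal. Each p-value therefore rests on the spread among libraries, which may be technical in part.

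Start sites are shown first because the pyrimidine tract is the sequence feature this gene family is known for. RefSeq promoter windows on GRCm38.p6 matched 63 of the 83 members. A tract was counted where a C followed by at least 4 letters that are C or T began within 3 bases of the annotated start, on the gene's strand. It was found in 26 of the 63 members (41.3%) and in 3651 of the 27025 genes of the table (13.5%). The share was 15 of 38 (39.5%) in the large subunit and 11 of 25 (44.0%) in the small one. The 30 bases around the start of 5 called members with the tract are printed below, with the letters matched by this rule in capitals. Rpsa and the muscle gene Rpl3l, whose windows lack the tract, follow. In Rpl14 the run of C and T begins further upstream than the capitals. In Rpl13a the capitals reach the end of the printed bases, so the tract may be longer.
Rpl12 (chr2:32961697-32961726, + strand): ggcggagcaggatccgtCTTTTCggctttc
Rpl13a (chr7:45128731-45128760, - strand): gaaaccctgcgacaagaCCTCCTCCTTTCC
Rpl18 (chr7:45718056-45718085, + strand): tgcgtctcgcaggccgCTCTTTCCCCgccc
Rpl14 (chr9:120571502-120571531, + strand): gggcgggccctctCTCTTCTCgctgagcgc
Rps18 (chr17:33955651-33955680, - strand): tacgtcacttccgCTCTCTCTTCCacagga
Rpsa (chr9:120127751-120127780, + strand): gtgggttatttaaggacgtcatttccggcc
Rpl3l (chr17:24727811-24727840, + strand): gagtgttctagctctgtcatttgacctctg
A match describes these letters only, and the annotated start may lie some bases from the start used in the heart.

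Libraries held 14203041 to 22688664 counts, and the 13 mitochondrially encoded genes took 40.1 to 47.7% of them. The 83 members together held 1.16 to 1.42% of the counts of a library. Before any scaling factor, the group means were 1.21% in controls, 1.24% with isoproterenol and 1.34% with both drugs. Markers of cardiomyocytes (Myh6, Tnnt2, Actc1 and 5 others) summed to 63359 to 70779 CPM (counts scaled to the library's size) in control libraries, 53305 to 58224 in isoproterenol libraries and 52599 to 63606 with both drugs, so the defining markers of the labelled heart muscle were present in every library. The 7 macrophage markers, all detected, summed to 108 to 133, 146 to 200.1 and 142 to 203 CPM, and the 6 fibroblast markers to 633 to 882, 822 to 1146 and 781 to 1294 CPM. With isoproterenol versus control, 3 of the 8 cardiomyocyte markers were called lower, and 5 of the 7 macrophage, 2 of the 6 fibroblast and 2 of the 5 smooth muscle and pericyte markers higher. None of the 5 lymphocyte markers reached the test, with 4 (Cd3d) to 91 (Cd79a) counts each over the 18 libraries. In bulk tissue, fewer cells of a type and less RNA per cell cannot be told apart, and the part of these shifts in the results below was not tested.

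Levels per length, in the authors' TPM (transcript abundance corrected for length and depth), differed by 58.0-fold between members. The median was 138 TPM over members, 134 for large and 183 for small subunit genes, and 48 members lay above 100 TPM. Rps15, which lies at the decoding side of the small subunit, was highest with 535 ± 53.0 TPM (SD, n = 18). Rplp1, an acidic protein of the stalk that recruits elongation factors, had 529 ± 47.1 TPM, and the 2 did not differ beyond their spread. Rps24 (504 ± 32.5), Rps3a1 (444 ± 38.4) and Rplp0 (410 ± 44.2 TPM) followed. Rpl22l1, a paralogue of Rpl22, was lowest with 9.22 ± 1.17 TPM, below Rpl27 (16.8 ± 2.57), Rps19 (23.9 ± 2.61), Rps15a (24.97 ± 2.15) and Rpl10 (25.9 ± 5.15 TPM). Rps19, Rps15a and Rpl10 did not differ beyond their spread. For Rpl27 and Rpl10 a pseudogene with the same coding sequence held more counts than the gene, so their levels are uncertain. The order also depends on the gene length used for TPM, and annotated exon length ranged from 374 to 6270 bases over members. Mean counts over the 18 libraries were 4152 for Rps15, 1381 for Rps19 and 1938 for Rps15a. The part of length in the order of levels was not tested.

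**Figure D1:**
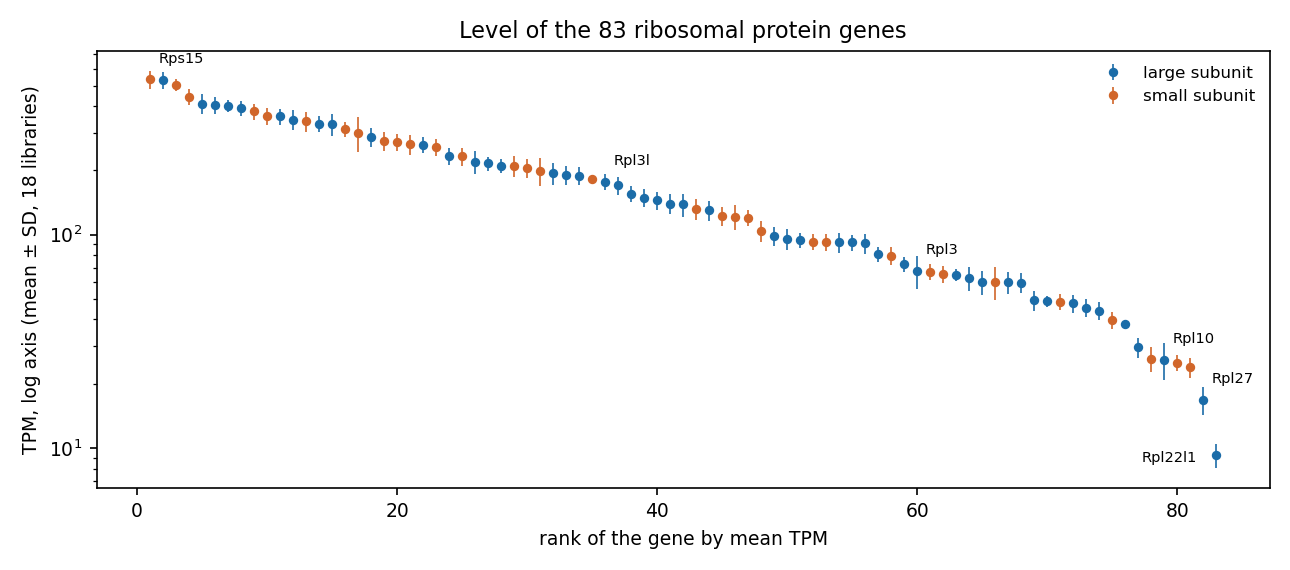
Mean TPM ± SD over 18 libraries (log axis) of the 83 genes in order of level, coloured by subunit. Rps15 is highest at 535 TPM, Rpl22l1 lowest at 9.22 TPM, and Rpl3l at 177 TPM lies above Rpl3 at 67.7 TPM.

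Isoproterenol was compared with control to see how the family stood after 21 days of β-adrenergic drive. Of the 83 members, 12 fell and 0 rose (edgeR's quasi-likelihood test, adjusted p under 0.05 over 13281 genes). The background was 5.62% of all genes called lower and 6.94% called higher. The fallers were 5 of 50 large subunit genes (Rpl14, Rpl18, Rpl22, Rpl23a, Rpl36) and 7 of 33 small ones, among them Rps2, Rps3a1, Rps18, Rps26, Rps28 and Rpsa. Their log2 fold changes lay between -0.30 and -0.16, which is at most 1.24-fold. All 12 were below the control mean in 6 of 6 isoproterenol libraries. This follows in part from their selection by a test on the same libraries. DESeq2 called 15 members lower and 0 higher, against 7.21% and 8.40% of all genes. By limma-voom 17 were lower and 0 higher, against 7.31% and 8.79%. At an unadjusted p under 0.05, 27 members were lower and 0 higher, against 12.8% and 14.8% of all genes.

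The members that did not pass leaned the same way by small amounts. The fitted value was below 0 in 78 and above 0 in 5 of 83 members, against 49.8% and 50.2% of all genes. The median log2 fold change was -0.094 over the large and -0.10 over the small subunit genes, beside 0.0011 over all genes tested, and members ranged from -0.30 (Rps28) to 0.11 (Rpl10). The direction of the medians depends on the scaling: with library totals and no scaling factors the medians were 0.050 and 0.043, while the median of all genes moved to 0.14. On that scale 0 members were called lower and 0 higher, against 1.83% and 20.2% of all genes. Relative to that median the members lay at -0.096. The 12 fallers were still fitted below 0 on that scale, from -0.16 (Rps28) to -0.017 (Rps3a1), with adjusted p from 0.144 to 0.875. Leaving out the 4 libraries with over 80 CPM of the atrial gene Myl7 left 2 calls, Rps28 and Rpl36, against 2.31% of all genes called lower, with a median of -0.116 over the members. Leaving out single libraries gave 5 to 15 calls, with 5 to 7 without control library 3, 4 or 6 or isoproterenol library 2, 4 or 6.

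**Figure D2:**
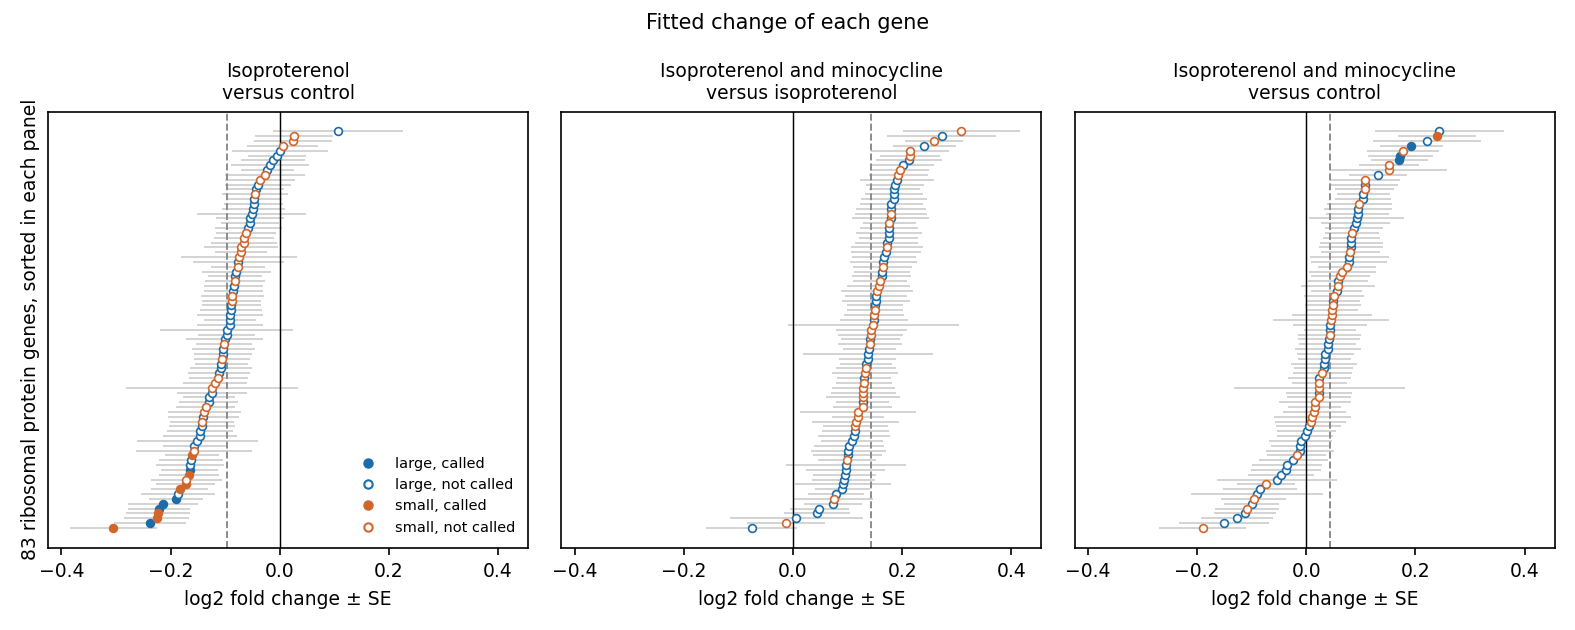
Fitted log2 fold change ± SE of the 83 genes, sorted within each of the 3 comparisons; filled points passed the test, and the dashed line is the median of the 83 genes. The dashed line lies below 0 for isoproterenol against control (12 filled points), and at 0.14 for added minocycline (0 filled points).

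Rpl23a, a large subunit protein at the mouth of the exit tunnel where nascent chains meet their targeting factors, had the smallest adjusted p. Its lowest, median and highest values were 231, 235 and 252 CPM in control libraries, 190, 199.9 and 238 with isoproterenol, and 204, 220.4 and 234 with both drugs. Isoproterenol library 3 lay within the control range at 238 CPM, and the other 5 lay below it. The log2 fold change was -0.22 ± 0.057 (SE), with adjusted p = 0.0140. Rpl22, an RNA-binding protein of the same subunit, had 73.6, 77.0 and 79.4 CPM in controls and 61.1, 66.6 and 73.2 with isoproterenol. These groups did not overlap, and the fall was 0.19 ± 0.050 on the log2 scale (-0.19, adjusted p = 0.0165). Rpl36 fell by 0.24 (± 0.066), Rpl14 by 0.21 (± 0.064) and Rpl18 by 0.16 (± 0.052) on the log2 scale, with adjusted p of 0.0214, 0.0318 and 0.0396.

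Small subunit members near the exit of the message were among those that fell. Rps28, a short protein at that site, had 45.7, 51.3 and 61.0 CPM (lowest, median, highest) in controls, 36.8, 41.0 and 50.8 with isoproterenol and 38.4, 46.2 and 48.8 with both drugs. Its groups overlapped through isoproterenol library 3, and its log2 fold change of -0.30 ± 0.080 (adjusted p = 0.0152) was the lowest among members. Rps28 shares its locus with Kank3, so its reads could be split with that gene. Rps26, its neighbour on the ribosome, had 115, 118 and 121 CPM in controls and 87.1, 100.4 and 116 with isoproterenol (log2 fold change -0.23 ± 0.060, adjusted p = 0.0165). Rpsa, a protein of the same region that is also known as a laminin receptor, had 395, 424 and 436 CPM in controls, 335, 377 and 393 with isoproterenol and 407, 454 and 459 with both drugs. Its control and isoproterenol libraries did not overlap, and it fell by 0.18 ± 0.053 (adjusted p = 0.0263).

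Rps2, at the channel where the message enters, had 429.9, 438 and 493 CPM in controls and 358, 411 and 420 with isoproterenol, with no overlap. It fell by 0.17 ± 0.054 (adjusted p = 0.0386). Rps3a1, a small subunit protein that touches initiation factor eIF3, fell by 0.16 ± 0.049 (adjusted p = 0.0339). Rps18, in the head of the small subunit, fell by 0.17 ± 0.054 (adjusted p = 0.0486), and its locus overlaps Vps52. Groups did not overlap for 5 members in all, among them Rpl18, Rpl22, Rps2 and Rpsa, against 3.25% of all genes in this direction, and for 0 members in the other (3.66% of all genes).

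**Figure D3:**
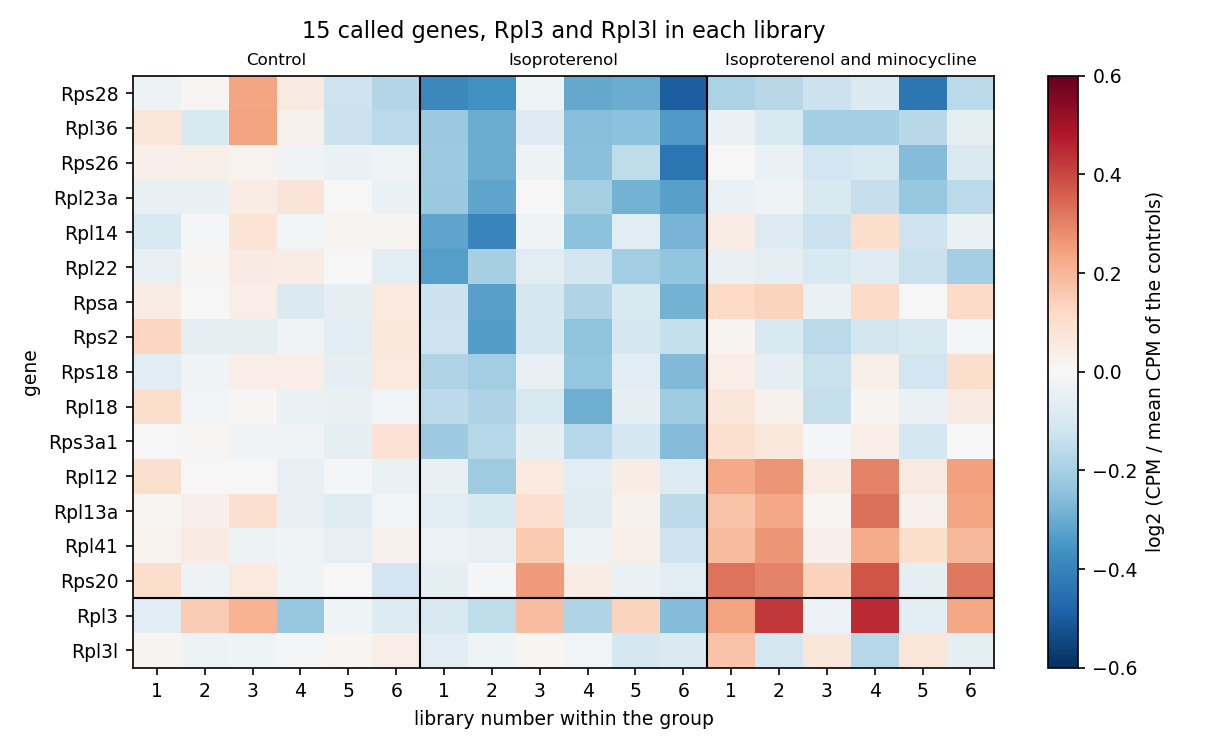
CPM of 15 members called in any comparison, and of Rpl3 and Rpl3l below the line, as log2 of the ratio to the control mean (colour), by library. The upper 11 genes were called lower with isoproterenol, and the next 4 called higher with both drugs.

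Adding minocycline to isoproterenol was compared with isoproterenol alone. By edgeR's adjusted p, 0 members were called in either direction, against 0.00753% of all genes called higher and 0.0452% called lower. The fitted value was above 0 in 81 of 83 members, all but Rpl37rt (-0.075) and Rps27l (-0.013), against 49.3% of all genes. Rpl37rt is nearly identical to Rpl37, so its value is uncertain as that of a single gene. At an unadjusted p under 0.05, 56 members were higher and 0 lower, against 3.88% and 3.73% of all genes. The median log2 fold change was 0.145 over large and 0.143 over small subunit genes, beside -0.0026 over all genes. It stayed above 0 with unscaled library totals, at 0.104 and 0.105. DESeq2 called 5 members higher (Rpl5, Rpl12, Rps3a1, Rps4x and Rpsa, named after their values were seen), against 0.105% of all genes. By limma-voom 0 members were called higher, against 0.00753% of all genes.

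Rpsa came closest to the threshold. Every library given both drugs (407 to 459 CPM) lay above every isoproterenol library (335 to 393 CPM). The log2 fold change was 0.26 ± 0.053, and adjusted p = 0.0722 missed the threshold. Rpl5, which with Rpl11 and 5S RNA forms the particle that can bind MDM2, had 205, 213 and 233 CPM (lowest, median, highest) with isoproterenol and 233, 245 and 258 with both drugs. Its groups did not overlap either, with a log2 fold change of 0.19 ± 0.047 and adjusted p = 0.273. These were the only 2 members without overlap, against 0.188% of all genes in this direction.

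The highest fitted values were those of Rps12 (0.31 ± 0.11), Rpl3 (0.27 ± 0.099), Rpsa and Rpl12 (0.24 ± 0.057). Rpl12, at the base of the stalk, had 116, 129.7 and 140 CPM with isoproterenol and 139, 159 and 166 with both drugs, with overlap between the highest of the first and the lowest of the second group (adjusted p = 0.204). Rps12, a small subunit protein, had 71.5, 81.0 and 97.8 CPM with isoproterenol and 82.9, 97.7 and 127 with both drugs, with wide overlap. Near-identical copies of Rps12 held 52.3% as many counts, so its value is uncertain as that of a single gene. The difference was at most 1.24-fold for any member, that of Rps12, and 1.10-fold at the median.

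Mice given both drugs were also compared with control. This comparison shares its libraries with the other two, so their values are not independent. Here 4 members rose and 0 fell, against 10.2% of all genes called higher and 9.05% lower. At an unadjusted p under 0.05, 1 member was lower and 9 higher, against 16.4% and 17.0% of all genes. DESeq2 called 6 members higher and 0 lower, against 11.5% and 10.9% of all genes. By limma-voom 3 were higher and 0 lower, against 9.35% and 8.58%. The members' counts lay below the background by each tool. In the same comparison 5 of the 6 fibroblast, 5 of the 7 macrophage, 3 of the 5 smooth muscle and pericyte and 1 of the 5 endothelial markers were called higher, and 3 of the 8 cardiomyocyte markers lower. Their part in the members' values was not tested. Rps20, a protein of the small subunit's head, had 59.7, 64.2 and 69.8 CPM (lowest, median, highest) in controls, 61.8, 63.6 and 77.3 with isoproterenol and 62.4, 80.04 and 84.0 with both drugs. It rose by 0.24 ± 0.071 on the log2 scale (adjusted p = 0.0226) and was above the control mean in 5 of 6 libraries. Rpl12 rose by 0.19 ± 0.057 (adjusted p = 0.0233), from 130, 134 and 144 CPM to 139, 159 and 166.

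Rpl41, one of the shortest proteins known, had 232, 240 and 248 CPM in controls and 245, 274 and 288 with both drugs (log2 fold change 0.17 ± 0.053, adjusted p = 0.0281). Rpl13a, which can leave the ribosome to silence inflammatory messages in myeloid cells, had 175, 183 and 196 CPM in controls and 184, 211 and 230.3 with both drugs (0.17 ± 0.060, adjusted p = 0.0475). Groups overlapped for all 4, and 0 members were without overlap in either direction (3.55% of all genes higher, 3.59% lower). The medians were 0.041 over large and 0.047 over small subunit genes, beside 0.0035 over all genes, and 63 of 83 members were fitted above 0 (50.7% of all genes). With unscaled library totals the medians were 0.144 and 0.151 and 20 members were called higher and 0 lower, against 17.5% and 4.10% of all genes, beside a median of all genes of 0.11. Without the 4 libraries high in Myl7 the count was 1, against 5.66% of all genes, and Rps20, Rpl12, Rpl41 and Rpl13a all lost their calls. The 1 was Rpl10, whose near-identical copies held 480% as many counts, so it is uncertain as a single gene. Leaving out single libraries given both drugs gave 0 (without library 4) to 7 (without library 5), and 2 without library 2 or 6. It was 1 without control library 4 and 2 without control library 5 or 6.

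The balance of the subunits was compared directly as the mean log2-CPM of the large minus that of the small subunit genes in each library. It was -0.060 ± 0.012 in controls, -0.050 ± 0.016 with isoproterenol and -0.064 ± 0.013 with both drugs (SD, n = 6 each). The differences between group means were 0.010, -0.014 and -0.0043 for isoproterenol versus control, both drugs versus isoproterenol and both versus control. All 3 are close to or below the SD between libraries, and the groups overlapped. That SD describes single libraries and not the error of a group mean, and the balance was not tested. On the log2 scale the levels themselves differed more between groups. For both drugs versus control the level differences (0.038 large, 0.042 small) were also below their SD between libraries (0.067). The large subunit mean was 6.93 ± 0.038, 6.84 ± 0.078 and 6.97 ± 0.077 log2-CPM, and the small subunit mean 6.99 ± 0.039, 6.89 ± 0.074 and 7.04 ± 0.080.

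**Figure D4:**
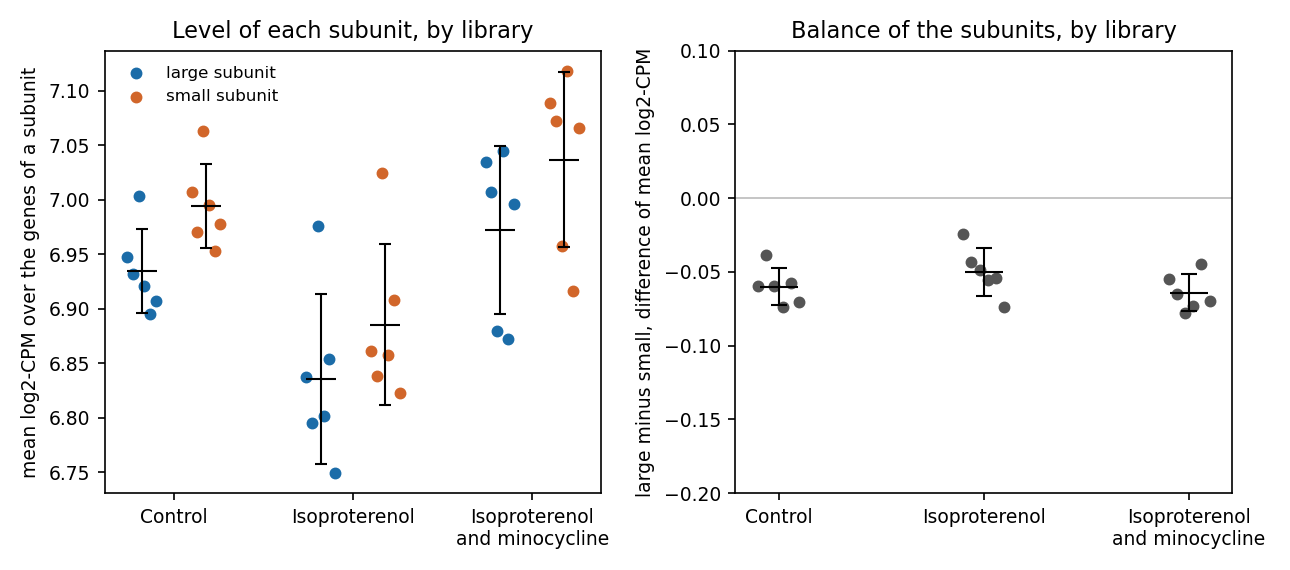
Left, mean log2-CPM of the large and small subunit genes in each library (points), with group mean ± SD (bars, n = 6); right, their difference in each library. The difference lay between -0.078 and -0.024 in all 18 libraries.

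Single libraries stood apart within groups. Over all members, the mean was 6.92 to 7.03 log2-CPM in controls, 6.78 to 6.995 with isoproterenol and 6.89 to 7.07 with both drugs. Isoproterenol library 3 was the highest of its group, with 52 of 83 members above their control mean, against 3 to 14 in the other 5. With both drugs, libraries 1, 2, 4 and 6 had 62 to 71 members above the control mean, while libraries 3 and 5 had 24 and 15. Cardiomyocyte markers summed to 52599 to 60106 CPM in the first 4 of these and to 63606 and 61832 in libraries 3 and 5. Fibroblast markers summed to 853 to 1294 against 781 and 811 CPM, and macrophage markers to 159 to 203 against 155 and 142 CPM. Erythroid markers summed to 423 to 751 against 2260 and 1025 CPM. Smooth muscle and pericyte markers summed to 719 to 1010 against 693 and 706 CPM, and adipocyte markers to 4.18 to 10.8 against 3.59 and 0.805 CPM. Endothelial markers did not set them apart (520 to 808 against 584 and 575 CPM), nor did atrial, Schwann cell or mesothelial markers. These libraries were split by the members' own values. The part of these markers in the members' values was not tested. Without isoproterenol library 3, the medians for isoproterenol versus control were -0.12 for both subunits and 15 members were called lower.

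Members moved together from library to library. After each group's mean was taken off, the correlation of a member with the mean of the others over the 18 libraries had a median of 0.756, and 69 of 83 members were above 0.5. All points share their library and its scaling factor, so this is a description. Rpl35a (0.93), Rpl13a (0.92) and Rpl11 (0.90) followed the rest most closely. The 6 members below 0.2 were Rpl3l (-0.22), Rpl37rt (0.0017), Rps27 (0.099), Rpl10 (0.12), Rpl22l1 (0.16) and Rps12 (0.17). Of these, Rpl37rt, Rps27, Rpl10 and Rps12 are uncertain as single genes because of near-identical copies, described below.

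Among genes that are no members, Rbm3 had the pattern most like the members' mean, with r = 0.90 over the 18 centred libraries. Rbm3 is an RNA-binding protein induced by mild cold. It had 48.5, 51.2 and 59.3 CPM (lowest, median, highest) in controls, 55.7, 60.8 and 72.6 with isoproterenol and 58.2, 76.5 and 91.5 with both drugs. It rose with both drugs versus control (log2 fold change 0.49 ± 0.093, adjusted p = 0.000899), and its value for isoproterenol versus control was 0.23 (adjusted p = 0.105). With unscaled library totals the latter was 0.38 and passed the test (adjusted p = 0.00911). The correlation leaves out differences between groups. Pnrc2, Ip6k2, Pik3r5, Prpf40b, Tbrg1, Ddx39b and B4galnt1 came next, with r between 0.81 and 0.83.

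Role groups on the ribosome were read by their counts and medians, and with unscaled library totals every group's median with isoproterenol lay between 0.0082 and 0.094, with 0 calls in any group. The counts below stand beside 12 of 83 members and 5.62% of all genes called lower. The 4 stalk genes (Rplp0, Rplp1, Rplp2, Rpl12) had a median log2 fold change of -0.13 with isoproterenol and 0.14 with added minocycline, with 0 calls in both. Of the 9 measured proteins around the exit tunnel, 2 fell with isoproterenol (Rpl22, Rpl23a), with a median of -0.091. Of the 6 proteins around the message exit, 3 fell (Rpsa, Rps26, Rps28), with a median of -0.14. Rps6, the classic substrate of S6 kinase, had 271, 280 and 290 CPM (lowest, median, highest) in controls, 255, 259 and 289 with isoproterenol and 270.4, 294 and 317 with both drugs, with fitted values of -0.076 and 0.16 for the 2 steps.

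Members with and without a match to the tract rule at the annotated start had close medians. The median log2 fold change with isoproterenol was -0.094 in members with the tract and -0.10 in those without it. With added minocycline both medians were 0.148. Members without a match include Rps26 and Rps2, whose windows hold such a run just past the reach of the rule. The annotated start may also lie some bases from the start used in the heart. The split may therefore misplace members, and its close medians cannot show whether the tract matters. Among the 16 members called in any comparison, 12 had a window and 5 of these held the tract, the 5 printed above.

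Rpl3l is the paralogue of Rpl3 found in striated muscle, and its level did not follow the other members from library to library (r = -0.22). It lies on chromosome 17 at 24727820 to 24736143 (+ strand) and Rpl3 on chromosome 15 at 80077794 to 80091868 (- strand), positions of the deposited table that overlap GRCm38. Rpl3l had 186, 191 and 196 CPM (lowest, median, highest) in controls, 177, 184 and 192 with isoproterenol and 169, 191 and 214 with both drugs. Its fitted values were -0.048, 0.049 and 0.00086 in the 3 comparisons, and it passed the test in none. Rpl3 had 112, 127 and 151 CPM, 109, 120.3 and 149, and 125, 154 and 179 in the same order.

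Per length, Rpl3l made up 73.5 ± 2.44% of the TPM of the pair in controls, 73.5 ± 2.43% with isoproterenol and 70.3 ± 4.65% with both drugs (SD, n = 6 each). The ranges overlapped, and the lowest share, 64.3%, was in a library given both drugs. Reads of Rpl3 could be split with the overlapping gene Syngr1. Among the other pairs, Rpl22l1 held 19.2 ± 2.61%, 19.6 ± 1.42% and 19.7 ± 1.95% of the Rpl22 pair. Rpl36al held 51.0 ± 1.14%, 49.8 ± 1.56% and 48.9 ± 1.22% of its pair with Rpl36a. Rps27l, a p53-responsive paralogue, held 39.7 ± 6.22%, 42.1 ± 5.76% and 38.9 ± 1.91% of its pair with Rps27. This share leaves out Rps27rt, which has the coding sequence of Rps27 and held 116% as many counts. The level of Rps27 and the share are therefore uncertain.

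Ribosomal protein genes have many processed copies in the genome, and the counts show where this matters. Copies with at least 95% identity over at least 75% of the coding sequence were present in the table for 73 members, 475 copies in all. For 71 of 83 members the copies held under 1% as many counts as the member. For 7 they held at least 20%: Rpl27 (625%), Rpl10 (480%), Rps27 (116%), Rps27rt (86.3%), Rpl21 (77.1%), Rps12 (52.3%) and Rpl37 (41.7%). These 7 and Rpl37rt are uncertain as single genes, and 0 of them were called in the 3 comparisons as reported.

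Their spread within groups shrank when gene and copies were summed. The coefficient of variation (CV) of Rps27 went from 19.3% alone to 6.98% with its copy Rps27rt, of identical coding sequence. Rpl27 went from 16.1 to 6.06% with Rpl27-ps3, Rpl10 from 16.0 to 7.84% with Rpl10-ps3 and Rps12 from 14.1 to 6.46% with Rps12-ps3. The median CV over members was 6.35%. In isoproterenol library 1, Rps27 was lowest at 22.2 CPM while Rps27rt was highest of its group at 57.3 CPM. With copies summed, the number of members called lower with isoproterenol was 12, as before.

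**Figure D5:**
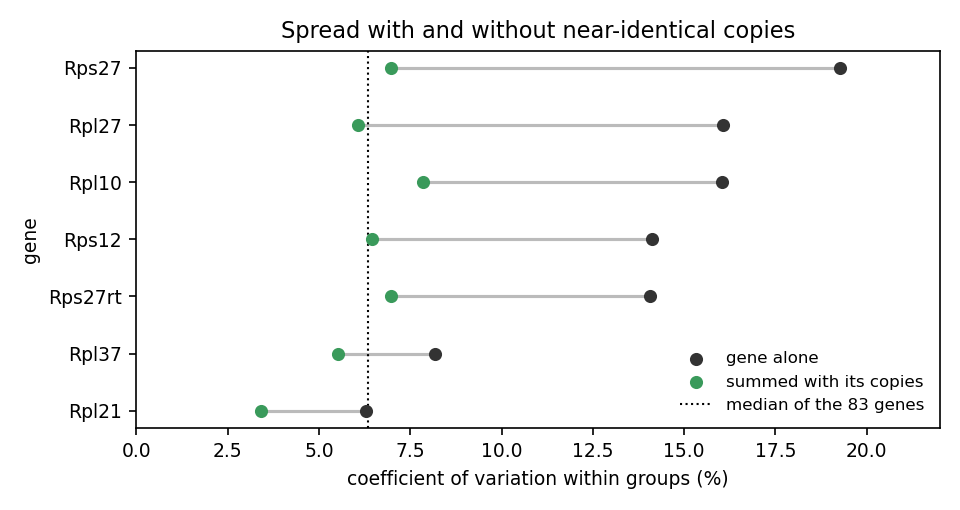
Within-group coefficient of variation (%) of the 7 genes whose copies, as found by the search, held at least 20% as many counts. Values are for the gene alone (black) and summed with its copies (green), and the dotted line is the median of the 83 genes. Rps27, Rpl27, Rpl10, Rps12 and Rps27rt start at 14.1 to 19.3% and end at 6.06 to 7.84%.

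Other genes of the translation machinery were read from lists beside the members. Their counts with isoproterenol stand beside 6.94% of all genes called higher and 5.62% lower, or 20.2% and 1.83% with unscaled library totals. With unscaled library totals, Eif4e, Eif6 and Sesn1 below kept their calls with isoproterenol, while Naca, Eef1a2 and Eif4ebp1 did not (adjusted p from 0.111 to 0.412). Of 5 tested factors that sit on the ribosome, Naca, which guards nascent chains, fell with isoproterenol by 0.22 ± 0.072 (adjusted p = 0.0465). Of 13 elongation and termination factors, 3 fell with isoproterenol and 0 rose (1 higher, 0 lower with unscaled totals). Eef1a2, the elongation factor of adult muscle, had 722, 775 and 816 CPM (lowest, median, highest) in controls, 606, 654 and 735 with isoproterenol and 542, 578 and 639 with both drugs. It fell with isoproterenol (-0.22 ± 0.058, adjusted p = 0.0147) and with both drugs (-0.39 ± 0.058, adjusted p = 8.42e-05), while its paralogue Eef1a1 rose with both drugs (0.37 ± 0.099, adjusted p = 0.0124).

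Of 38 initiation factors, 1 rose and 3 fell with isoproterenol, while with unscaled library totals 8 were called higher and 1 lower. Eif4e, which binds the cap of the message, had 90.9, 101 and 111 CPM in controls and 65.7, 75.6 and 86.3 with isoproterenol, with no overlap (-0.43 ± 0.083, adjusted p = 0.00158). Eif6, which keeps free large subunits from joining, rose (0.29 ± 0.065, adjusted p = 0.00543). Of 52 genes of ribosomal RNA transcription and ribosome assembly, 2 fell (Gnl2, Pno1) and 0 rose, with a median of -0.073. With unscaled library totals the median was 0.071, and 5 were called higher and 0 lower. Of 22 regulators around mTOR, LARP1 and MYC, 2 fell and 0 rose. The 2 were Eif4ebp1, a repressor that binds Eif4e (-0.34, adjusted p = 0.00457), and Sesn1, an inhibitor of mTOR signalling (-0.63, adjusted p = 0.0111). With unscaled library totals 4 of these 22 were called higher and 1 lower.

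The 77 ribosomal proteins of mitochondria, which are encoded in the nucleus and build a separate ribosome, had a median of -0.068 with isoproterenol (0.075 with unscaled library totals), with 3 called higher and 3 lower (9 and 1 with unscaled totals). With added minocycline, which binds bacterial ribosomes, their median was 0.013 (-0.027 with unscaled totals), with 44 of 77 fitted above 0 and 0 called. The cytosolic members had a median of 0.14 in that comparison, and the difference between the lists was not tested. In the same comparison 0 genes were called in any of the lists of the machinery. With both drugs versus control, the mitochondrial list had 4 higher and 7 lower, and the initiation factors 2 higher and 6 lower, against 10.2% and 9.05% of all genes. With unscaled library totals these counts were 6 and 1, and 4 and 3, against 17.5% and 4.10% of all genes.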

How the data were processed

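Polyadenylated left ventricular RNA was sequenced as 18 libraries in paired reads of 150 bases on an Illumina NovaSeq. Per the labels' protocols, the authors trimmed reads in CLC Genomics Workbench 21.0.3 (quality limit 0.05, at most 2 ambiguous bases) and used its RNA-seq module. The submitters' processing notes name edgeR without a role. For mapping settings, build, annotation and strand the entry is "not given in the sources used here", and overlapping genes cannot be told apart by strand. The deposited counts are total counts per gene, with no normalisation. The deposited TPM values were made by the authors, corrected for length and depth, and are used here for levels between genes only. They carry no scaling factors, and on that scale the group means order differently than by CPM. The members together held a mean of 1.39% of TPM in controls, 1.46% with isoproterenol and 1.55% with both drugs. Columns were matched by the number in the description field, and 0 per-sample columns were left unmatched.

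All 83 member identifiers are in GENCODE M21 (GRCm38), each at an overlapping position and 64 with identical start and end. Counts were filtered with filterByExpr by group (13281 genes, with all 83 members), scaled by TMM and tested with edgeR 4.0.16 in R 4.3.3 (robust glmQLFit, glmQLFTest, 1 fit of 18 libraries), 2-sided, with Benjamini-Hochberg adjustment over all genes of a comparison. TMM factors were 0.929 to 0.980 in controls, 0.998 to 1.13 with isoproterenol and 0.944 to 1.05 with both drugs. CPM values use these factors, and log2-CPM carries a prior count of 2. Libraries of a group differed beyond counting noise (chi-square per degree of freedom 5.30 to 33.3), so none was taken as a repeat. The pipeline was tested on simulated data. Copies were found with BLAST+ 2.17.0.

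Members and lists were chosen with earlier results of these data known, so no p is given for a list. Named genes are the called members, paralogue pairs, the 4 highest and 4 lowest fitted members of a comparison, the 5 highest and lowest levels, the 4 most variable members, role groups, up to 4 called genes per list, and the 8 genes most like the members' mean. Alternatives were DESeq2 1.42.0, limma-voom (limma 3.58.1), other scalings and filters, fits of 12 libraries, and leaving out libraries. Some results are not reported here.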

Additional observations from a re-analysis of the deposited data

Results flagged for a closer look

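In 90 groups of 6 values (30 values in each of 3 groups), 7 had a single library far from the others by Dixon's criterion, and chance alone would give about 1 in 20. Control library 1 was high for Rpl12 (144 CPM, others 130 to 135) and for Rpl18 (139 CPM, others 126 to 130.2). Control library 3 was high for Rpl39 (32.3 CPM, others 25.1 to 26.9). Isoproterenol library 3 was high for Rps20 (77.3 CPM, others 61.8 to 66.7) and for Rpl23a (238 CPM, others 190 to 208). Isoproterenol library 1 was low for Rps27 (22.2 CPM, others 37.8 to 44.5). Library 5 of isoproterenol and minocycline was low for Rps28 (38.4 CPM, others 45.4 to 48.8).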

How the results depend on the processing

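The count of members called lower with isoproterenol was 12 as reported, 2 when the 4 libraries with Myl7 over 80 CPM were left out, and 0 with library totals and no scaling factors, an alternative chosen after seeing the data. It was 5 to 15 when single libraries were left out (6, 7, 6, 6, 7 and 5 without control 3, 4 and 6 and isoproterenol 2, 4 and 6). The count called higher with both drugs versus control was 4 as reported and 20 with unscaled totals. Without the Myl7-high libraries it was 1, Rpl10, which is not among the 4. Without single libraries it was 0 to 7. It was 1, 2 and 2 without control 4, 5 and 6. Without libraries 2, 4, 5 and 6 given both drugs it was 2, 0, 7 and 2. For added minocycline, DESeq2 called 5 members higher in place of 0. With unscaled totals the medians were 0.050 (large) and 0.043 (small) for isoproterenol versus control, and 0.144 and 0.151 for both drugs versus control. The cause was not tested, except that unscaled totals move all genes. Summing near-identical copies was also chosen after seeing the data and gave 12 and 4 calls. The 4 were not all the same genes as reported, since Rpl13a lost its call there. Over the alternatives and named genes, 113 single-gene values lost the threshold, and 0 values with a test reversed. Rps28 lost its call in 1 of 31 alternatives, Rps26, Rpl22 and Rpl23a in 2 each, Rpl13a in 20 and Rps18 in 18. Using unique reads was not run, since the table used gives total counts. No paired analysis was possible because no number in the labels is shared between libraries of different groups.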

Other observations

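Members are short: the median exon length was 1739 bases, against 4503 bases in the other tested genes. The 3295 other genes of at most 2844.5 exon bases had median log2 fold changes of 0.015, 0.013 and 0.028 in the comparisons of isoproterenol with control, of both drugs with isoproterenol, and of both drugs with control. The members had -0.097, 0.14 and 0.043 in the same order. The short genes were not matched to the members in length or level, and the part of gene length in the members' values was not tested.

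The summed atrial markers Sln, Myl7 and Myl4 ranged from 35.7 to 315 CPM in controls, 23.02 to 230.4 with isoproterenol and 26.2 to 484 with both drugs. Myl7 was above 80 CPM in control libraries 5 and 6, isoproterenol library 5 and library 2 given both drugs.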
